A study of Solanum lycopersicum with 4 samples.

Results

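The 9 YABBY genes of tomato (Solanum lycopersicum) were followed through RNA sequencing of shoot meristems from tmf mutant plants, which carry a mutation in TERMINATING FLOWER (TMF), and from wild-type plants. The members were taken by their gene identifiers, 9 of the 34727 listed, and a RefSeq gene table (assembly SLM_r2.1) places a YABBY, CRC or INO gene at the matching chromosome and order for all 9. The tmf mutant and the wild type had 2 libraries each. Each library came from a pool of meristems of several plants, collected 8 days after germination at a stage that the labels call late vegetative. The labels give neither the tmf allele nor the cultivar.

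YABBY genes encode plant transcription factors with a zinc finger and a YABBY domain. In Arabidopsis the FILAMENTOUS FLOWER (FIL), YABBY2 and YABBY5 types are read in leaves and other lateral organs, where they act on the abaxial (lower) side and promote blade growth. They are largely silent in the central zone of the shoot meristem, so their transcripts mark organ primordia at its flank. CRABS CLAW (CRC) acts in carpels and nectaries, and INNER NO OUTER (INO) in the outer integument of the ovule. The 6 tomato genes of the FIL, YABBY2 and YABBY5 types are called vegetative members here, and the 2 CRC-type genes and INO are called carpel and ovule members.

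Levels are normalised reads, scaled to 10000000 per library, and depth was 17540331 to 28310492 reads assigned to genes. Values do not account for transcript length, so levels are compared between libraries for the same gene and not between genes. TMF (Solyc09g090180.1.1) had 6.1 and 6.27 normalised reads in the tmf libraries, against 1238 and 2224 in the wild-type libraries, so the libraries separated at this gene as labelled. The labelled tissue was checked on 6 genes of the shoot meristem and its boundary, among them the stem cell genes WUS and CLV3, and all 6 had reads in every library. Their summed level was 3007 to 4809 in tmf and 2378 to 3289 in the wild type. All 16 leaf markers, genes of Rubisco small subunits and chlorophyll a/b-binding proteins, also had reads in every library, with none at 0. Their summed level was 31761 to 53619 in tmf and 43139 to 53145 in the wild type, and 13 of the 16 were lowest in tmf replicate 1. In such bulk tissue, fewer cells of a type and less RNA per cell cannot be told apart.

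The comparison asked whether the genes of leaf-like organs and those of carpels and ovules differed between tmf and wild-type meristems. The levels of the 6 vegetative members overlapped between genotypes. Unadjusted 95% intervals for these 6 lay within a ratio of 0.63 to 1.86, so equal levels were not shown. No YABBY gene passed the test. CRCB, a CRC-type gene, was the 1 member whose genotypes did not overlap, where 32.8% of all genes tested did not, at a mean of 15.2 ± 15.1 normalised reads in tmf and 1.54 ± 0.326 in the wild type (2 libraries per genotype; SD, n = 2). INO had no read in any library. Of the 9 members, 8 reached the mean of 1 normalised read needed for the test, and 0 of these 8 passed an adjusted p of 0.05 over all genes (limma). In the same fit 0.215% of the 21437 genes tested passed, so a count of 0 among 8 is near that background. At an unadjusted p under 0.05 the count was 1 member, CRCB, beside 6.2% of all genes tested, and 0 members were called by edgeR's quasi-likelihood test, which called 0.233% of all genes, or by DESeq2, which called 0.998%. The median log2 fold change of the 8 was 0.18, against 0.04 over all genes tested.

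**Figure D1:**
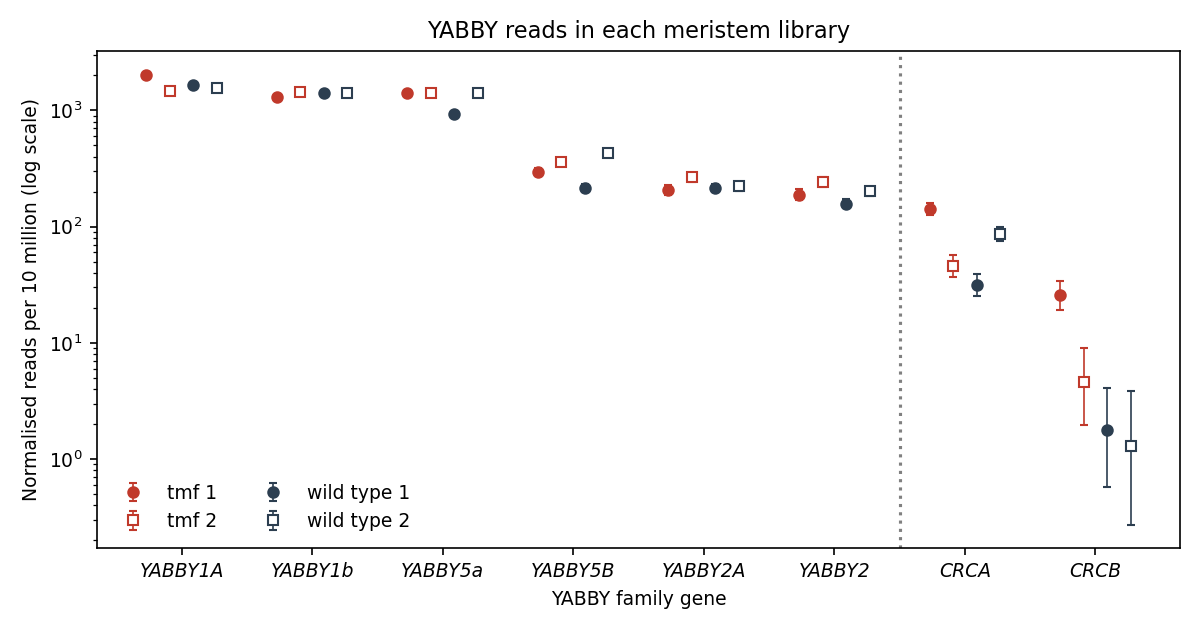
Normalised reads (log axis) of the 8 YABBY genes with reads, in both tmf libraries (red, left) and both wild-type libraries (dark, right); filled circles are replicate 1, open squares replicate 2, and bars are exact 95% counting intervals. The 6 genes left of the dotted line differ by a ratio of at most 1.98 between libraries, while CRCA ranges from 31.4 to 143 and CRCB from 1.31 to 25.9.

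The FIL types are the members most closely tied to abaxial identity in Arabidopsis. YABBY1A (Solyc01g091010.2.1, chromosome 1) had 2015 and 1470.3 normalised reads in the tmf libraries, against 1664 and 1544 in the wild-type libraries. The tmf libraries were both the highest and the lowest of the 4, so the genotypes overlapped. Its partner YABBY1b (Solyc08g079100.2.1, chromosome 8) had 1309 and 1441 in tmf, against 1402 and 1414 in the wild type. It was the steadiest member, with a ratio of 1.1 between its highest and lowest library. The log2 fold change was 0.10 ± 0.25 for YABBY1A and -0.04 ± 0.22 for YABBY1b (SE; adjusted p = 0.999 for each by limma). The 95% intervals, which are not adjusted for the number of genes, ran from a ratio of 0.72 to 1.6 for YABBY1A and from 0.687 to 1.39 for YABBY1b.

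The YABBY5 types act redundantly with the FIL types in Arabidopsis leaves. YABBY5a (Solyc07g008180.2.1, chromosome 7) had 1409 and 1406 normalised reads in the tmf libraries, against 929 and 1418 in the wild-type libraries. Wild-type replicate 1 stood below 3 libraries that were nearly level. YABBY5B (Solyc12g009580.1.1, chromosome 12) had 297 and 357 in tmf, against 217 and 428 in the wild type. Both tmf libraries lay between the wild-type ones, which differed by a ratio of 1.98. The log2 fold change was 0.29 ± 0.26 for YABBY5a and 0.10 ± 0.33 for YABBY5B (SE; adjusted p = 0.999 for each by limma), with unadjusted 95% intervals from a ratio of 0.807 to 1.86 and from 0.63 to 1.81. Without wild-type replicate 1 the log2 fold changes were -0.01 for YABBY5a and -0.39 for YABBY5B.

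The YABBY2 pair includes the gene called YABBY2b in tomato work, listed as YABBY2 in the reference table. It lies at the fasciated locus, which affects the number of fruit locules. The fasciated mutation is an inversion with breaks at this gene and near the stem cell gene CLV3, and the reference table gives the synonym FAS to CLV3 rather than to YABBY2. YABBY2 (Solyc11g071810.1.1, chromosome 11) had 188 and 240.02 normalised reads in the tmf libraries, against 158 and 201 in the wild-type libraries. In both genotypes replicate 2 was the higher library, and the genotypes overlapped. YABBY2A (Solyc06g073920.2.1, chromosome 6) had 205 and 265 in tmf, against 215 and 221 in the wild type. Here too the tmf libraries were the lowest and the highest. The log2 fold change was 0.25 ± 0.27 for YABBY2 and 0.09 ± 0.25 for YABBY2A (SE; adjusted p = 0.999 for each by limma), with unadjusted 95% intervals from a ratio of 0.781 to 1.82 and from 0.72 to 1.58.

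Together the 6 vegetative members summed to 5423 and 5179 normalised reads in the tmf libraries, against 4585 and 5226 in the wild-type libraries. The means were 5301 ± 172 in tmf and 4906 ± 453 in the wild type (2 libraries per genotype; SD, n = 2), a ratio of 1.08, and the ranges overlapped. With 2 libraries against 2, a permutation test cannot go below p = 0.333, so sums were not tested. None of the 6 had both tmf libraries above, or both below, both wild-type libraries, where 32.8% of all genes tested did so in one direction or the other. Each unadjusted 95% interval lay within a ratio of 0.63 to 1.86 and included no change. These limits are not a detection threshold, and a difference inside a gene's own interval is not excluded for that gene.

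**Figure D2:**
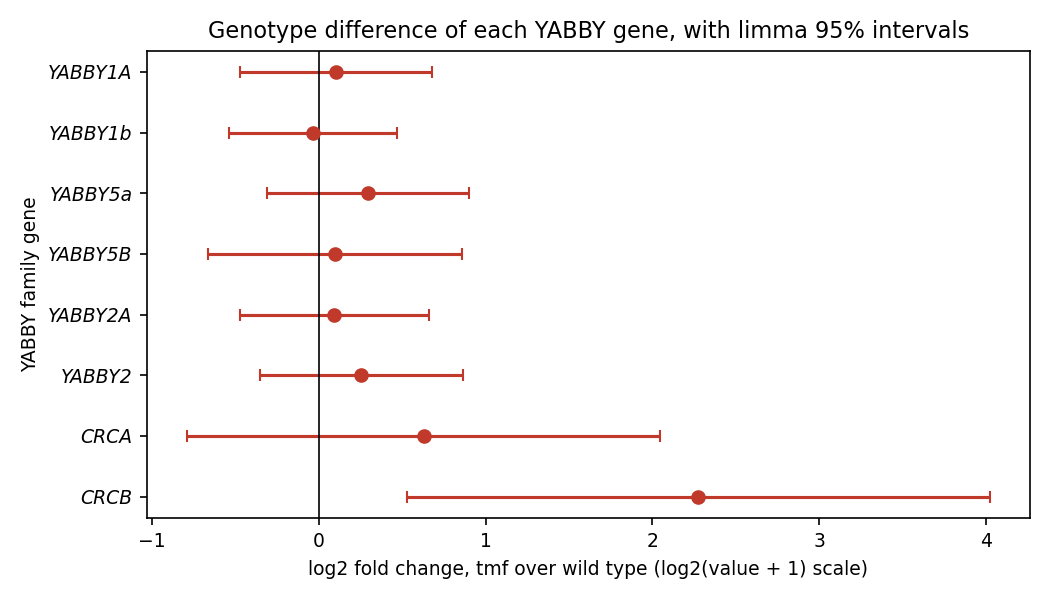
Log2 fold change of tmf over wild type on the log2(value + 1) scale (x axis) for the 8 tested YABBY genes (y axis); points are limma estimates from 2 libraries per genotype and bars are 95% intervals not adjusted for the number of genes. The 6 vegetative genes lie between -0.04 and 0.29, CRCA is at 0.63 with a wide interval and CRCB at 2.28.

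CRC acts in the carpels and nectaries of the Arabidopsis flower. CRCA (Solyc01g010240.2.1, chromosome 1) was read in every library, with 143 and 46.2 normalised reads in the tmf libraries, against 31.4 and 86.6 in the wild-type libraries. Tmf replicate 1 was highest, wild-type replicate 2 came next, and the genotypes overlapped. Replicates differed well beyond counting error. The ratio of tmf replicate 1 to tmf replicate 2 was 3.09 (exact 95% counting interval 2.41 to 4.01), and that of wild-type replicate 2 to wild-type replicate 1 was 2.75 (2.14 to 3.58). The log2 fold change was 0.63 ± 0.62 (SE; adjusted p = 0.999 by limma). It was -0.18 without tmf replicate 1 and -0.09 without wild-type replicate 1, so its direction rested on single libraries.

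CRCB (Solyc05g012050.2.1, chromosome 5) had 25.9 and 4.56 normalised reads in the tmf libraries, against 1.77 and 1.31 in the wild-type libraries. Both tmf libraries were above both wild-type libraries, as they were for 20.7% of all genes tested. The values rest on 51 and 8 reads in tmf, against 5 and 3 reads in the wild type. The log2 fold change was 2.28 ± 0.76 (SE; adjusted p = 0.574 by limma), on a log2(value + 1) scale that understates changes of such low levels. Pooled over libraries the ratio of tmf to wild type was 10.2, with an exact 95% counting interval of 4.84 to 24.6 that covers counting error only. Of the 59 tmf reads 51 came from replicate 1, which was 5.68 times tmf replicate 2 (2.68 to 13.9). Against the single wild-type libraries, tmf replicate 2 gave ratios of 2.58 (0.745 to 10.03) and 3.49 (0.838 to 20.4), both within counting error of 1. Without tmf replicate 1 the log2 fold change was 1.14, and without tmf replicate 2 it was 3.41.

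INO (Solyc05g005240.1.1, chromosome 5) had 0 reads in all 4 libraries. Taking 3 reads as the limit that a count of 0 allows, its level was at most 1.52 and 1.71 normalised reads in the tmf libraries, and at most 1.06 and 1.31 in the wild-type libraries. A transcript of the ovule integument was thus not detectable at this depth in either genotype.

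The 3 carpel and ovule members summed to 169 and 50.7 normalised reads in the tmf libraries, against 33.2 and 87.9 in the wild-type libraries. The means were 109.7 ± 83.4 in tmf and 60.6 ± 38.7 in the wild type (2 libraries per genotype; SD, n = 2), a ratio of 1.81, within the spread of the replicates. The ratio was 0.838 without tmf replicate 1, 2.79 without tmf replicate 2 and, leaving out wild-type replicates 1 and 2 in turn, 1.25 and 3.31. As a share of all YABBY reads these genes took 3.02% and 0.97% in tmf, against 0.719% and 1.65% in the wild type. The Wilson 95% intervals of these shares were 2.71 to 3.35% and 0.789 to 1.19% in tmf, against 0.588 to 0.879% and 1.44 to 1.9% in the wild type. The 4 shares alternate between genotypes, so the balance of carpel to vegetative YABBY reads did not separate tmf from wild type. The highest and lowest libraries differed by a ratio of 5.08 in the carpel and ovule sum and of 1.18 in the vegetative sum.

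Each YABBY type except INO is a pair of related genes, and the share of a pair's reads taken by 1 gene does not depend on library scaling. YABBY1A took 60.6% and 50.5% of the FIL pair in tmf, against 54.3% and 52.2% in the wild type. YABBY2 took 47.9% and 47.6% of the YABBY2 pair in tmf, against 42.2% and 47.6% in the wild type. YABBY5B took 17.4% and 20.2% of the YABBY5 pair in tmf, against 18.9% and 23.2% in the wild type. In each vegetative pair the shares of the 2 genotypes overlapped.

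The CRC pair was the 1 pair whose shares did not overlap between genotypes. Levels of single genes did not overlap for 32.8% of all genes tested, and shares were not computed for pairs outside the family. CRCB took 15.4% and 8.99% of the CRC reads in tmf, against 5.32% and 1.49% in the wild type. The Wilson 95% intervals were 11.9 to 19.6% and 4.63 to 16.7% in tmf, against 2.29 to 11.9% and 0.506 to 4.27% in the wild type. Those of tmf replicate 2 and wild-type replicate 1 overlap widely, and the order rests on few CRCB reads. These are the same reads as in the CRCB levels, so the share is not a separate result. The mean share was 12.2 ± 4.51% in tmf and 3.4 ± 2.71% in the wild type (2 libraries per genotype; SD, n = 2). How reads that match both genes of a pair were counted is not given in the sources used here.

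**Figure D3:**
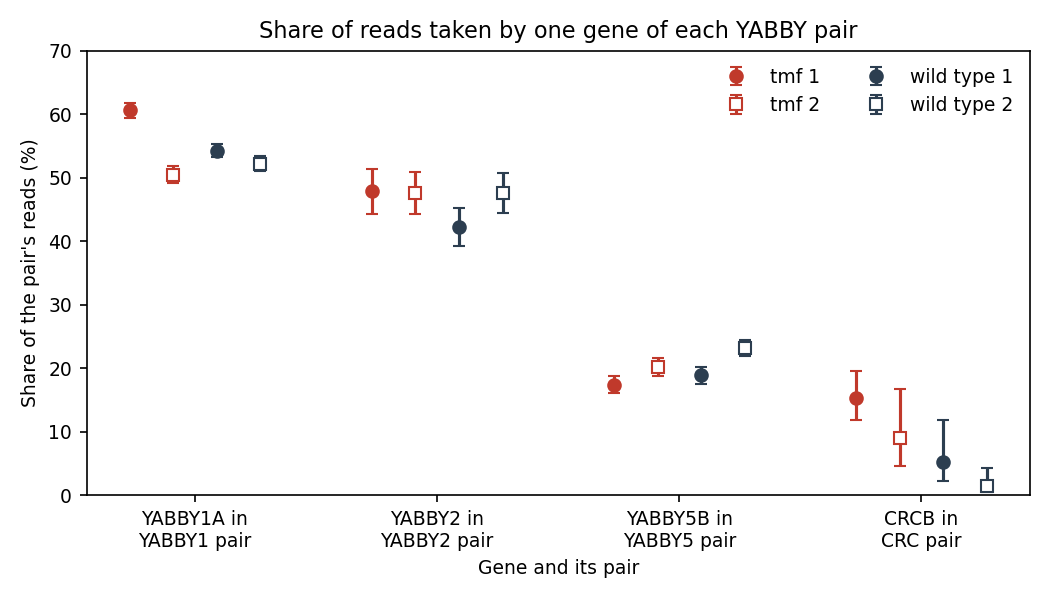
Share of a pair's reads (y axis, percent) taken by 1 of its genes, for the FIL (YABBY1), YABBY2, YABBY5 and CRC pairs, in the tmf libraries (red) and wild-type libraries (dark); filled circles are replicate 1, open squares replicate 2, bars are Wilson 95% intervals. For CRCB the tmf shares of 15.4% and 8.99% stand above the wild-type shares of 5.32% and 1.49%.

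Among the vegetative types, the FIL pair took 61.3% and 56.2% of the reads of the 6 genes in tmf, against 66.9% and 56.6% in the wild type. The YABBY5 pair took 31.5% and 34.05% in tmf, against 25% and 35.3% in the wild type. The YABBY2 pair took 7.24% and 9.74% in tmf, against 8.13% and 8.08% in the wild type. Wild-type replicate 1 stood apart here, with the highest FIL share and the lowest YABBY5 share. The genotypes overlapped for all 3 pairs.

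Other regulators of the same organs were read from a list of 14 identifiers compiled from published work on adaxial-abaxial polarity, of which the reference table places 2 by name, ARF3 and ARF4. None of the 14 passed in either direction (limma), and none did at an unadjusted p under 0.05, with edgeR's quasi-likelihood test or with DESeq2. Their log2 fold changes ran from -0.25 to 0.72 with a median of -0.08, against 0.04 over all genes tested. Both tmf libraries lay above both wild-type libraries for 3 of the 14 and below for 1, beside 20.7% and 12.1% of all genes tested. ARF3 (Solyc02g077560.2.1), an auxin response factor that promotes abaxial identity in Arabidopsis, had 1538 and 2009.65 normalised reads in tmf, against 2101 and 1691 in the wild type. ARF4 (Solyc11g069190.1.1), which acts with it there, had 2508 and 3739 in tmf, against 3866 and 3452 in the wild type. Both were lowest in tmf replicate 1, and the genotypes overlapped.

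Of these 14, Solyc09g010840.1.1, Solyc03g118770.2.1 and Solyc11g011770.1.1 had the library profiles most like the median profile of the vegetative members. The mean absolute distance between centred log2 values over the 4 libraries was 0.08, 0.08 and 0.09, against 0.33 for the least alike of the list. The vegetative profile itself was nearly flat, at -0.07 and 0.16 in tmf, against -0.18 and 0.04 in the wild type on the log2 scale. Likeness did not simply follow steadiness across libraries. Solyc11g011770.1.1, with a ratio of 1.37 between its highest and lowest library, ranked 3, while Solyc02g069830.2.1, with 1.34, ranked 13 of the 14.

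The carpel and ovule members were set beside 4 MADS-box genes of the AGAMOUS and ovule clades, which specify carpels and ovules. Of these 4, 3 were tested and none passed, at an unadjusted p under 0.05 either (limma), nor with edgeR's quasi-likelihood test or DESeq2. The genes that follow were picked out after their values were seen. MBP3 (Solyc06g064840.2.1), of the ovule clade, had 67.6 and 38.8 normalised reads in tmf, against 19.8 and 42.2 in the wild type (adjusted p = 0.949 by limma). The 4 libraries ranked in the same order as for CRCA, with tmf replicate 1 highest, then wild-type replicate 2, tmf replicate 2 and wild-type replicate 1. AG1 (Solyc02g071730.2.1), the C-class gene also called TAG1, had 11.2 and 3.42 in tmf, against 0.353 and 3.48 in the wild type (adjusted p = 0.851 by limma). The AG1 values rest on 22 and 6 reads in tmf, against 1 and 8 in the wild type. TAGL1 (Solyc07g055920.2.1), also of the AGAMOUS clade, had 7.12 and 3.99 in tmf, against 1.06 and 2.61 in the wild type (adjusted p = 0.851 by limma). It was the 1 gene of the list with both tmf libraries above both wild-type libraries, beside 20.7% of all genes tested. The TAGL1 values rest on 14 and 7 reads in tmf, against 3 and 6 in the wild type. Its separation thus turns on 7 reads against 6. AGL11 (Solyc11g028020.1.1) was under the filter, with 1.02 and 0 in tmf (2 and 0 reads), against 0 and 0.435 in the wild type (0 and 1 reads).

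The library order of CRCA was shared by CLV3 (Solyc11g071380.1.1), the stem cell peptide gene, with 114 and 25.7 normalised reads in tmf, against 18.01 and 66.6 in the wild type. The summed level of the 6 meristem and boundary markers had it too, at 4809 and 3007 in tmf, against 2378 and 3289 in the wild type. T6 (Solyc02g081120.2.1), the largest part of this sum, had the same order, with 2797 and 1062 in tmf, against 841 and 1117 in the wild type. WUS (Solyc02g083950.2.1) had 157 and 46.7 in tmf, against 51.9 and 92.7 in the wild type, again with tmf replicate 1 first and wild-type replicate 2 next. The other markers had other orders. KN1 was lowest in tmf replicate 1, NAM was highest in wild-type replicate 2, and LS had both tmf libraries above both wild-type libraries. Of all genes tested, 7.21% had the order of CRCA. The part of these markers in the CRC values was not tested. The leaf markers moved otherwise, with 31761 and 53619 in tmf, against 43139 and 53145 in the wild type. Of the 16 leaf markers, 7 had both tmf libraries below both wild-type libraries, beside 12.1% of all genes tested. Another 2 had both tmf libraries above, beside 20.7%. All of these are chlorophyll a/b-binding genes in runs of neighbouring identifiers on chromosomes 2 and 3, so they are not unrelated markers. The 3 Rubisco small subunit genes all overlapped between genotypes. In the test 0 of the 16 passed (limma), with 4 at an unadjusted p under 0.05, beside 6.2% of all genes tested. edgeR's quasi-likelihood test called 0 of the 16 and DESeq2 called 1, Solyc03g005780.1.1, at a lower level in tmf. The vegetative YABBY sum also had the library order of CRCA, over a narrower range, but none of its 6 members had that order alone. The vegetative sum was thus highest in tmf replicate 1, where the leaf marker sum was lowest. Its members were mixed in that library: YABBY1A was at its highest there, while 2 of the 6, YABBY1b and YABBY2A, were at their lowest.

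**Figure D4:**
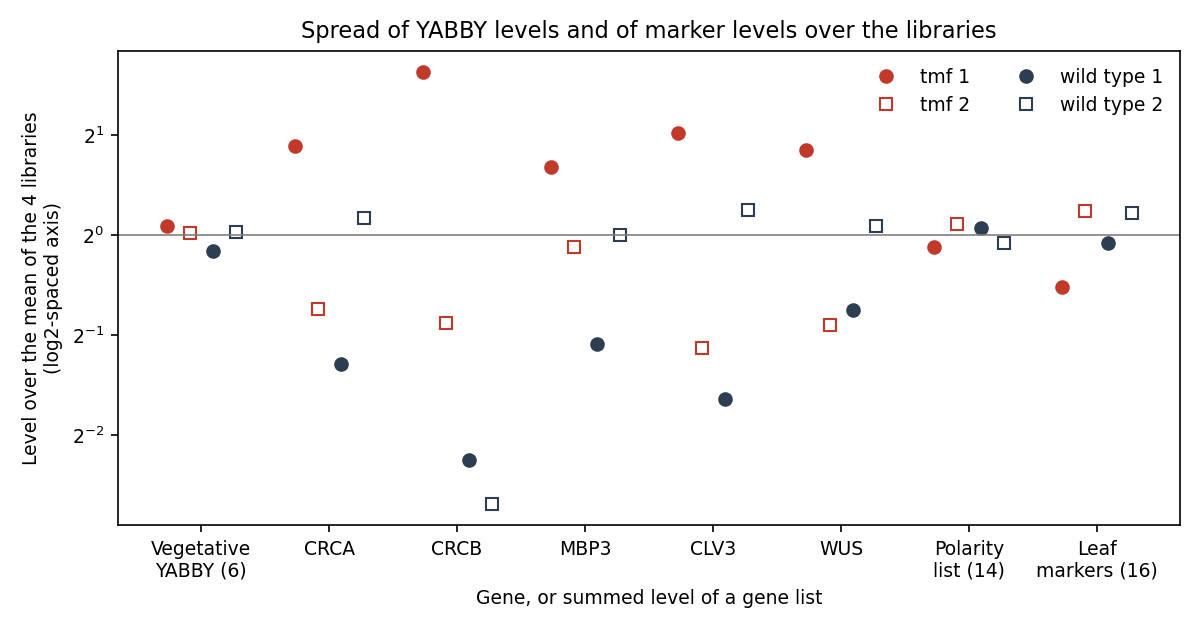
Level in each library divided by the mean of the 4 libraries (y axis, log2-spaced) for the vegetative YABBY sum, single genes, and the polarity and leaf marker sums; tmf libraries are red and wild-type libraries dark, filled circles replicate 1, open squares replicate 2. The vegetative YABBY sum, CRCA, MBP3 and CLV3 share 1 library order, which no single vegetative member has. The vegetative YABBY sum stays between 0.898 and 1.06 of its mean, while CRCA and CLV3 reach 1.86 and 2.03 in tmf replicate 1. Among listed genes not shown, KN1, NAM, LS and TAGL1 had other orders, while AG1 and T6 had that of CRCA.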

How the data were processed

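Polyadenylated RNA from acetone-fixed meristems was sequenced, per the labels' protocols. The submitters' processing notes name Bowtie 0.12.5 and edgeR; the genome build, annotation, counting tool, strandedness and handling of multiply matching reads are not stated in those notes or in the table. The authors deposited 1 normalised signal value per gene and library. Each library sums to 10000000, and 100% of values were whole multiples of the smallest within a relative tolerance of 1e-06, which returned the reads. PCR duplicates cannot be told apart, so intervals cover counting error only.

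Values were tested as log2(value + 1) with limma 3.58.1 (R 4.3.3) and a mean-variance trend, over genes averaging 1 normalised read or more, with Benjamini-Hochberg adjustment over all genes and a threshold of 0.05. The design named limma for normalised values, and that case applied. Alternatives on recovered reads used edgeR 4.0.16 and DESeq2 1.42.0. The fits were tried on simulated data with large changes in well-read genes. Changes at levels as low as those of CRCB, or as small as those of the vegetative members, were not covered. Tests were two-sided. P-values measure the spread between the pools. With 1 library left out, a gene's own spread comes only from the genotype that kept 2 libraries.

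The members and lists were chosen with earlier results of these data known. Members, TMF, called list genes and the 3 polarity genes nearest the vegetative profile were named by rule; ARF3 and ARF4 were added as the list's named genes. Identifiers were named where the RefSeq table has that name on the same chromosome within 5 percentage points of relative order (largest gap among members 2.8). TMF has no entry there and rests on published nomenclature. Coordinates and sequences are not reported.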

Additional observations from a re-analysis of the deposited data

How the results depend on the processing

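Settings were planned, except the crossed replicate block, which was chosen after seeing the data because deviations of same-numbered libraries correlated at -0.109. The 46 genes called became 214 with DESeq2, 219 with the crossed block and 368 with the replicate block (the cause was not tested), and 6 to 61 with 1 library left out (6 without either wild-type library). The replicate numbers are not known to pair libraries. With the replicate block 1 YABBY member passed, CRCB (limma adjusted p = 0.0341), where 1.72% of all genes passed; with the crossed block its adjusted p was 0.225. Over the 11 alternatives that kept every library, the adjusted p of CRCB (limma, edgeR or DESeq2) ran from 0.0341 to 0.752. Its log2 fold change was positive in all 15 alternatives. Under every other setting, leave-one-out fits included, 0 YABBY members were called, and 0 polarity or carpel and ovule list genes under all 15. With 1 library left out, log2 fold changes crossed 0 for YABBY1A (-0.12 to 0.33), YABBY1b (-0.105 to 0.0337), YABBY2A (-0.0911 to 0.276), YABBY5a (-0.0106 to 0.599), YABBY5B (-0.39 to 0.59) and CRCA (-0.18 to 1.43); YABBY5B was also at -0.0264 with DESeq2. The log2 ratio of the vegetative sum was 0.11, 0.05 with TMM and 0.06 with RLE rescaling; that of the carpel and ovule sum ran from -0.26 to 1.72 with 1 library left out. Depth limits CRCB and INO.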
